A study of Mus musculus with 2 samples.

Results

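The Wnt ligands, their receptors and the proteins that tune them were followed in RNA of sorted mouse mammary cells. Members were all genes with a symbol of the families Wnt, Fzd, Lgr4 to Lgr6, Lrp5 and Lrp6, Rspo, Dkk and Sfrp, together with 14 named inhibitors, feedback genes and nuclear effectors. This gave 60 members of 54438 genes, counted from 206 of the 137654 transcripts matched to the annotation. Both libraries of the series, named W1 and W2 by their titles, are labelled as basal mammary cells sorted from wild type C57BL/6 mice at 8 weeks of age. The series describes cells with and without surface Pd-l1, but no label says which library is which, so both were left without a class. The number of mice and cells behind each library is not stated in the labels. Each library stands alone, so no p-value is given, and no difference below can be read as one between Pd-l1 classes.

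Wnt proteins are secreted, lipid-bearing ligands that bind Frizzled receptors together with the co-receptors Lrp5 and Lrp6. In the best known branch this binding stops a cytoplasmic complex built on Axin from destroying beta-catenin, which then acts with Tcf and Lef factors on target genes. Several targets, among them Axin2, Rnf43, Znrf3, Nkd1 and Notum, dampen the signal in turn, while R-spondins amplify it through Lgr4, Lgr5 and Lgr6 by holding off the ubiquitin ligases Rnf43 and Znrf3. In the mammary gland, Wnt signals are known for branching, for the maintenance of basal stem cells and for tumours when a ligand gene is activated by insertion of a virus.

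The reads counted came to 3055839 for W1 and 3800027 for W2, recovered from the steps between deposited values. The sorting marker Cd274 had 649 reads in W1 and 0 in W2, which was not used to assign a class. Markers of the labelled basal cells were abundant in W2 and almost absent from W1. The 8 basal markers summed to 36645 TPM (transcripts per 1000000, a length-scaled level) there and to 11.9 TPM in W1, where Krt5 and Cnn1 had 0 reads and Krt14 had 1. Trp63 was at 0 in both. The 8 endothelial markers summed to 4655 TPM in W1 and 4.78 TPM in W2, where 7 of them had 0 reads. The 7 leukocyte markers summed to 116 and 6.90 TPM, the 8 luminal markers to 7.76 and 4346 TPM, and the 7 fibroblast markers to 3.19 and 206 TPM. The luminal sum in W2 came mostly from Krt8 (1691 TPM), Epcam (1511 TPM) and Krt18 (995 TPM). Gata3 (4 and 1298 reads) and Krt19 (2 and 68 reads) were higher in W2 as well. Esr1 went the other way (24 and 7 reads), and Elf5 and Prlr had 0 reads in both. The lymphatic endothelial list summed to 13139 and 8074 TPM, mostly from Ccl21a (10177 and 7543 TPM), a gene with near-identical copies. Lyve1, Prox1 and Flt4 of that list had 0 reads in W2, as did Mmrn1, which had only 3 reads in W1. Pdpn of the same list was read in both, at 438 TPM in W1 and 531 TPM in W2. Pericyte markers were at 59.2 and 51.3 TPM, all from Rgs5, and adipocyte markers at 7.92 and 3.96 TPM. The adipocyte sum was mostly Fabp4 in W1 (91 and 0 reads) and mostly Car3 in W2 (1 and 17 reads), while Adipoq and Plin1 had 0 reads in both. These marker differences run alongside every Wnt difference below, and their part in it was not tested. In such bulk RNA, fewer cells of a type and less RNA per cell cannot be told apart.

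Of the 60 members, 36 had a read in at least 1 library, and 29 reached 1 TPM in at least 1 library and were compared. A gene was called higher in a library when TPM + 1 differed 2-fold or more. On that scale 21 compared members were higher in W2 (72.4%), against 32.9% of all 12587 genes compared in the same way. Another 6 members (20.7%) were higher in W1, against 34.7% of all genes, and Fzd5 and Ctnnb1 lay within 2-fold. The median log2 ratio of W1 over W2 was -1.75 over the 29 members and -0.07 over all genes. These counts describe genes that had to be detected in 1 of the libraries to be compared. For 10 of the 29 W1 had 0 reads, for 4 W2 had 0 reads, and 15 were read in both. That split depends on the filter at 1 TPM. Before it, 9 members were read in W1 alone, 12 in W2 alone and 15 in both. Over all genes before it, 4490 were read in W1 alone, 2576 in W2 alone and 8743 in both. A member with 0 reads in a library was given a floor of 3 reads there. Its fold, written below as at least a value, is a bound for the library at 0 only. That bound leaves out the counting error of the library with reads and is no confidence limit of the ratio.

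**Figure D1:**
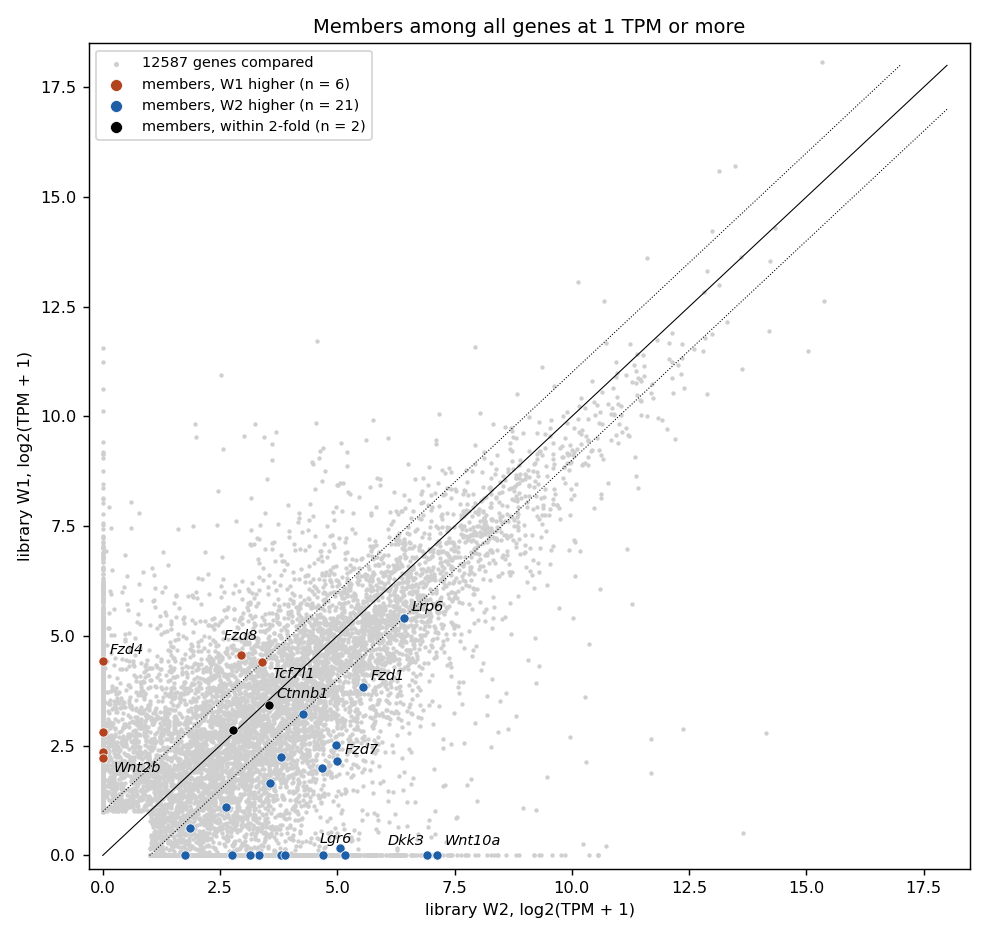
Levels of all 12587 genes compared (grey) and of the 29 compared members (coloured) in W2 (horizontal axis) and W1 (vertical axis), each as log2(TPM + 1). The solid line marks equal levels and the dotted lines 2-fold. The 21 members higher in W2 (blue) lie below the lower dotted line, 10 of them on the axis where W1 has 0 reads, and the 6 higher in W1 (red) lie above the upper one.

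Of 5 ligand genes compared, 4 were called higher in W2 and 1 in W1, where the shares over all genes are 32.9% and 34.7%. With a pseudocount of 5 the calls of Wnt11, Wnt6 and Wnt2b were lost, and those of Wnt10a and Wnt4 were not. Wnt10a (ENSMUSG00000026167.14, chromosome 1, 74791516 to 74804179, plus strand, GRCm38), a ligand known from skin, hair and tooth development, had 0 reads in W1 and 1046 in W2, where it stood at 139 TPM. The difference was at least 346-fold. Wnt4 (ENSMUSG00000036856.4, chromosome 4, 137277489 to 137299726, plus strand), the ligand that relays progesterone signals in the mammary epithelium, had 0 and 177 reads (0 and 13.8 TPM), at least 58.6-fold. Both were therefore read in W2 alone.

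Wnt11, a ligand best known for signalling without beta-catenin, was read in both libraries at 1.15 and 5.22 TPM (12 and 55 reads). It was 4.55-fold higher in W2, with an exact 95% interval of 2.41 to 9.34. Wnt6 had 0 and 15 reads (2.37 TPM in W2), at least 4.97-fold. Wnt2b went the other way, with 37 reads in W1 (3.68 TPM) and 0 in W2, at least 12.4-fold higher in W1. The intervals cover counting error of reads only, and the floors only that of the library at 0. Each library stands alone, so neither covers variation between animals or preparations. The labels name no molecular identifiers, so reads copied from the same molecule may be counted more than once.

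The remaining ligands were at or near 0. Wnt9b (13 reads), Wnt16 (8 reads) and Wnt1 (2 reads) were read in W1 only, and none of them reached 1 TPM. Wnt5a, a ligand that restrains ductal growth, had 13 reads in W2 (0.608 TPM) and 0 in W1. The other 10 of the 19 ligand genes, Wnt2, Wnt3, Wnt3a, Wnt5b, Wnt7a, Wnt7b, Wnt8a, Wnt8b, Wnt9a and Wnt10b, had 0 reads in both.

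Wnt genes often lie in pairs on a chromosome, and 4 such pairs were next to each other among protein-coding genes. Wnt6 and Wnt10a lie head to tail on chromosome 1 with 6193 bases between them, and both were read in W2 alone (15 and 1046 reads). In the pair of Wnt9b and Wnt3 on chromosome 11, Wnt9b had 13 reads in W1 while Wnt3 had 0 in both. Wnt10b and Wnt1 on chromosome 15 had 0 and 2 reads in W1 and 0 in W2. Wnt3a and Wnt9a, also on chromosome 11, were at 0 in both libraries.

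**Figure D2:**
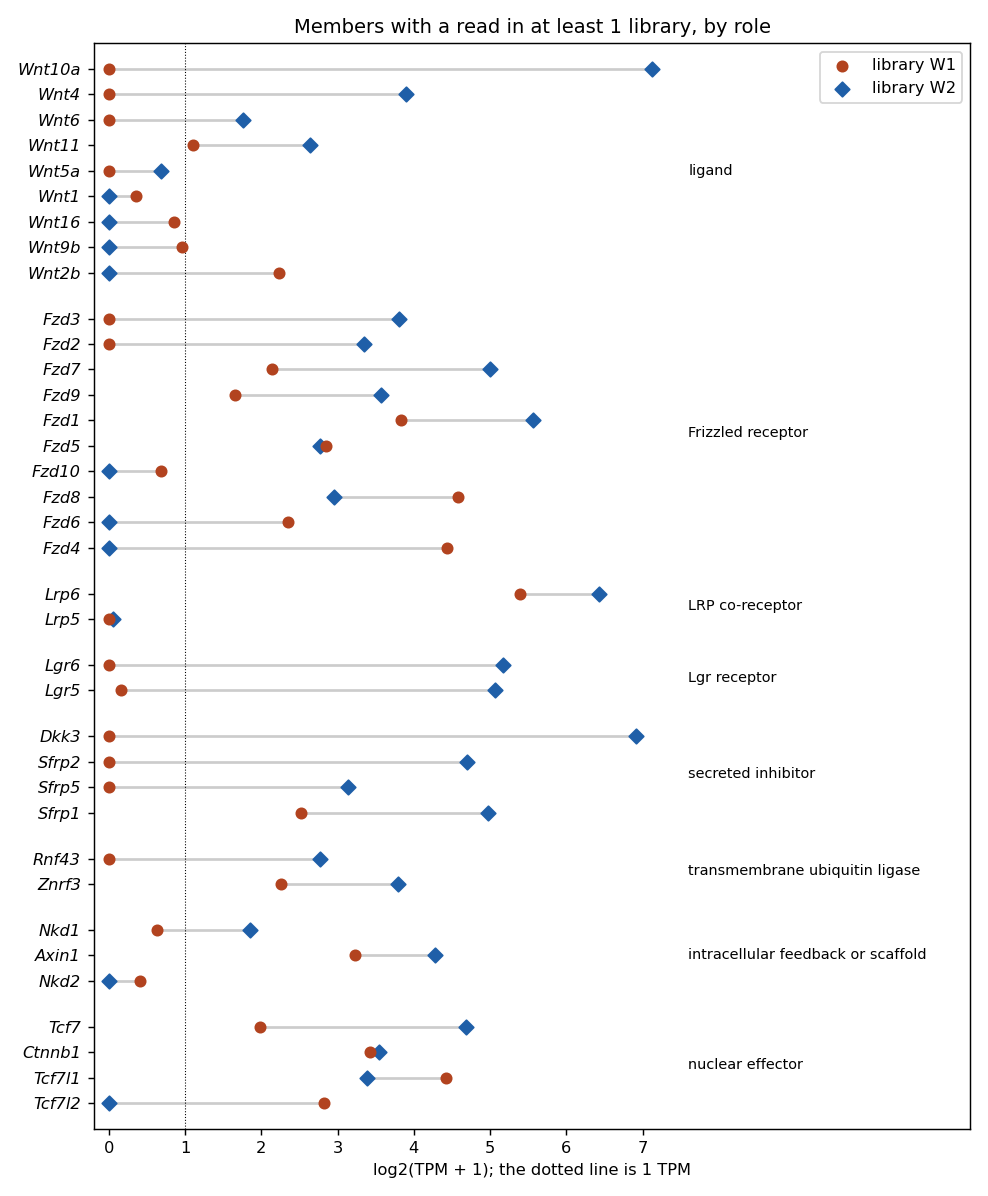
Level of the 36 members with a read in at least 1 library, as log2(TPM + 1), in W1 (circles) and W2 (diamonds), grouped by role. All 4 secreted inhibitors and both Lgr receptors shown are higher in W2, whereas Frizzled receptors lie on either side. The share of all genes called higher in W2 is 32.9%.

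All 10 Frizzled genes were read and 9 were compared. Of these, 5 (55.6%) were called higher in W2 and 3 (33.3%) in W1, the latter close to the 34.7% of all genes. Fzd5 lay within 2-fold and Fzd10 (6 reads, W1) stayed under 1 TPM. Fzd7 (ENSMUSG00000041075.8, chromosome 1, 59482424 to 59486955, plus strand), a receptor linked to mammary stem cell activity, stood at 3.42 TPM in W1 and 30.9 TPM in W2. That was 9.02-fold higher in W2 (interval 6.67 to 12.5). Fzd1 stood at 13.2 and 46.2 TPM, 3.49-fold higher in W2 (2.94 to 4.17). Fzd9 stood at 2.16 and 10.9 TPM, 5.03-fold (2.87 to 9.43). These 3 receptors were present in both libraries and differed in degree.

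Another pair of Frizzled genes was read in W2 alone. Fzd3, a receptor known from planar cell polarity, had 0 and 503 reads (12.9 TPM in W2), at least 167-fold. Fzd2 had 0 and 102 reads (9.13 TPM), at least 33.8-fold.

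Fzd4 (ENSMUSG00000049791.4, chromosome 7, 89404355 to 89413134, plus strand), the receptor through which norrin acts in blood vessels, showed the reverse, with 418 reads in W1 (20.5 TPM) and 0 in W2. It was at least 140-fold higher in W1. Ndp, which encodes norrin, is no member and was singled out after its values were seen, and had 0 reads in W1 and 126 in W2 (21.3 TPM). The receptor and this ligand were thus read in different libraries. Fzd8 stood at 22.8 TPM in W1 and 6.76 TPM in W2, 3.37-fold higher in W1 (2.75 to 4.16). Its values gave 412.43 and 123.19 reads on the annotated length, not whole numbers, so that interval is approximate. Fzd6, a relative of Fzd3, was called higher in W1 on only 8 reads, all on a retained-intron transcript, and lost that call with a pseudocount of 5. Fzd5 lay close to even, at 6.20 and 5.83 TPM, a ratio of 1.06 (0.825 to 1.37). Endothelial and leukocyte markers, by their sums, were higher in the same library as Fzd4 and Fzd8. Basal, luminal and fibroblast sums were higher in the same library as Fzd1, Fzd2, Fzd3, Fzd7 and Fzd9. The part of any of these cells in these differences was not tested.

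Among co-receptors, Lrp6 was read in both libraries and Lrp5 had 1 read in all. Lrp6 (chromosome 6, 134446476 to 134566965, minus strand) summed to 41.2 TPM in W1 and 85.4 TPM in W2, just past the 2-fold rule. Most of that sum came from 1 short retained-intron transcript, at 33.7 and 60.6 TPM. The long coding transcript had 213 and 696 reads (7.50 and 24.4 TPM), 3.25-fold higher in W2 (2.78 to 3.80). Both transcripts had the same direction, and the coding one differed more.

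Both Lgr receptors that were read were called higher in W2, a call made for 32.9% of all genes. Lgr6 (ENSMUSG00000042793.13, chromosome 1, 134983301 to 135105276, minus strand) had 0 and 711 reads (34.9 TPM in W2), at least 235-fold. Lgr5 (chromosome 10, 115450311 to 115587780, minus strand), known as a marker of epithelial stem cells, stood at 0.119 and 32.5 TPM. Its single read in W1 fell on a retained-intron transcript. Its coding transcript had 0 and 466 reads, at least 154-fold higher in W2. Lgr4 and the 4 R-spondin genes, whose products these receptors bind, had 0 reads in both libraries.

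Of the 10 secreted inhibitors 4 were compared, and all 4 were called higher in W2, against 32.9% of all genes. For 3 of them W1 had 0 reads, so they entered the comparison through W2 alone. Dkk3 (ENSMUSG00000030772.6, chromosome 7, 112116017 to 112159057, minus strand), a divergent member of the Dickkopf family, had 0 reads in W1 and 1229 in W2 (120 TPM), at least 407-fold. The related genes Dkk1, Dkk2 and Dkk4, each with 1 listed transcript, had 0 reads in both. Among Sfrp genes, whose products bind Wnt proteins outside the cell, Sfrp2 had 0 and 153 reads (25.0 TPM in W2), at least 50.7-fold. Sfrp5 had 0 and 45 reads (7.76 TPM), at least 14.9-fold. Sfrp1 was the only inhibitor with reads in both libraries, at 4.76 and 30.5 TPM, and was 6.42-fold higher in W2 (4.91 to 8.51). Fibroblast markers were higher in W2 as well, and Sfrp2 is also known from fibroblasts. Whether such cells supplied it was not tested. Sfrp4, Wif1 and Notum, which encodes an enzyme that strips the lipid from Wnt proteins, had 0 reads in both.

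Both ubiquitin ligases of the feedback loop were called higher in W2, as were Axin1 and Nkd1, against 32.9% of all genes. Znrf3 stood at 3.77 and 12.8 TPM, and its main coding transcript was 2.76-fold higher in W2 (2.10 to 3.66). Its partner Rnf43 had 0 and 55 reads (5.79 TPM), at least 18.2-fold, all on a retained-intron transcript. Nkd1, which binds Dishevelled and limits its action, stood at 0.544 and 2.61 TPM from 5 and 26 reads. Its call was lost with a pseudocount of 5, with median-ratio scaling and with the most read transcript alone. Nkd2, its relative, had 4 reads in W1 and 0 in W2, stayed under 1 TPM and was not compared.

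Axin1, the scaffold of the complex that destroys beta-catenin, stood at 8.39 and 18.4 TPM, 2.19-fold higher in W2 (1.72 to 2.82). Axin2, the feedback target most often used as a readout of the pathway, had 0 reads in both. None of its 7 listed transcripts has more than 450 stretches of 50 bases (50-mers) found in no other listed transcript, and its 0 is therefore a weak measurement. The calls of Axin1 and Lrp6 lie close to the threshold, and both were lost with FPKM, with median-ratio scaling, with a pseudocount of 5 and when the libraries were rescaled without the transcript Gm23935, which took 27.7% of all TPM in W1 and 4.13% in W2.

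Nuclear effectors did not share a direction. Tcf7, which encodes the factor known as Tcf-1, stood at 2.95 and 24.7 TPM, and its main transcript was 11.6-fold higher in W2 (6.84 to 21.1). Tcf7l1, which mostly acts as a repressor, stood at 20.3 and 9.48 TPM. Its main transcript was 2.05-fold higher in W1 (1.58 to 2.67), and the gene lies at the threshold. Its call was lost with a pseudocount of 5, without mitochondrial and ribosomal protein genes, with the most read transcript alone and with coding transcripts alone. These Tcf genes differed in opposite directions, Tcf7 by the wider margin. Tcf7l2 was called higher in W1 from 15 reads against 0, spread over 3 of its 22 listed transcripts.

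Ctnnb1, the gene of beta-catenin, summed to 9.74 and 10.7 TPM from 43 and 32 reads. None of its 15 listed transcripts has more than 470 own 50-mers, so its sum cannot be set against that of other genes. Its only coding transcript with reads had 15 and 22, and a retained-intron transcript had 26 and 0. Lef1, with 8 listed transcripts, and Sp5, with 1, had 0 reads in both.

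**Figure D3:**
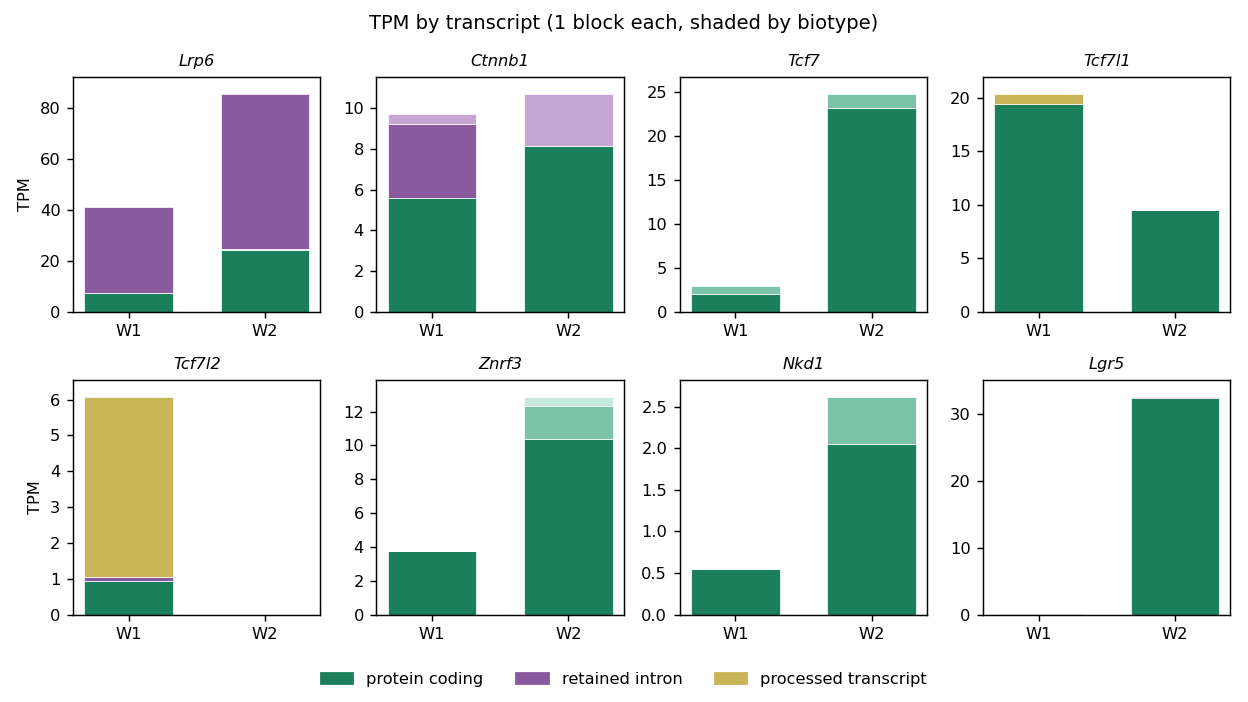
TPM of each read transcript of the 8 members named above the panels, stacked by library, with colour giving the annotated biotype. Most of Lrp6 is a retained-intron transcript in both libraries, and most of Tcf7l2 in W1 is a processed transcript, while Tcf7, Znrf3, Nkd1 and Lgr5 in W2 rest on coding transcripts.

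Reads fell mostly on transcripts with sequence of their own. Of the 206 member transcripts, 64 have over 500 own 50-mers, and 38 of these (59.4%) had a read. Of 122 with 1 to 500 such 50-mers 10 had a read (8.20%), and of 20 with none 0 had. Members with 1 listed transcript share no reads between forms of the gene. Of the 23 such members 10 were compared, with 8 higher in W2 (Dkk3, Wnt4, Fzd2, Sfrp5, Fzd7, Sfrp1, Fzd9 and Fzd1) and 2 in W1 (Fzd4 and Fzd8). The shares over all genes, with any number of listed transcripts, are 32.9% and 34.7%. Dkk3, Wnt4, Fzd2 and Sfrp5 were compared through W2 alone and Fzd4 through W1 alone.

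Among the 24 members with 0 reads in both libraries, 10 have 1 listed transcript, each with over 500 own 50-mers. For these (Dkk1, Dkk2, Dkk4, Rspo4, Sp5, Wnt2, Wnt3, Wnt3a, Wnt8a and Wnt8b) the floor of 3 reads is worth 0.267 to 0.753 TPM in W1 and 0.265 to 0.748 TPM in W2. The other 14 have several listed transcripts, and 6 of them (Axin2, Lgr4, Notum, Wif1, Wnt5b and Wnt9a) have no transcript with over 500 own 50-mers. In Rspo2 the only transcript over that mark is a retained-intron form, and in Lef1 the transcript with most own 50-mers is of that kind too. A value of 0 does not show that any of these genes was silent.

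**Figure D4:**
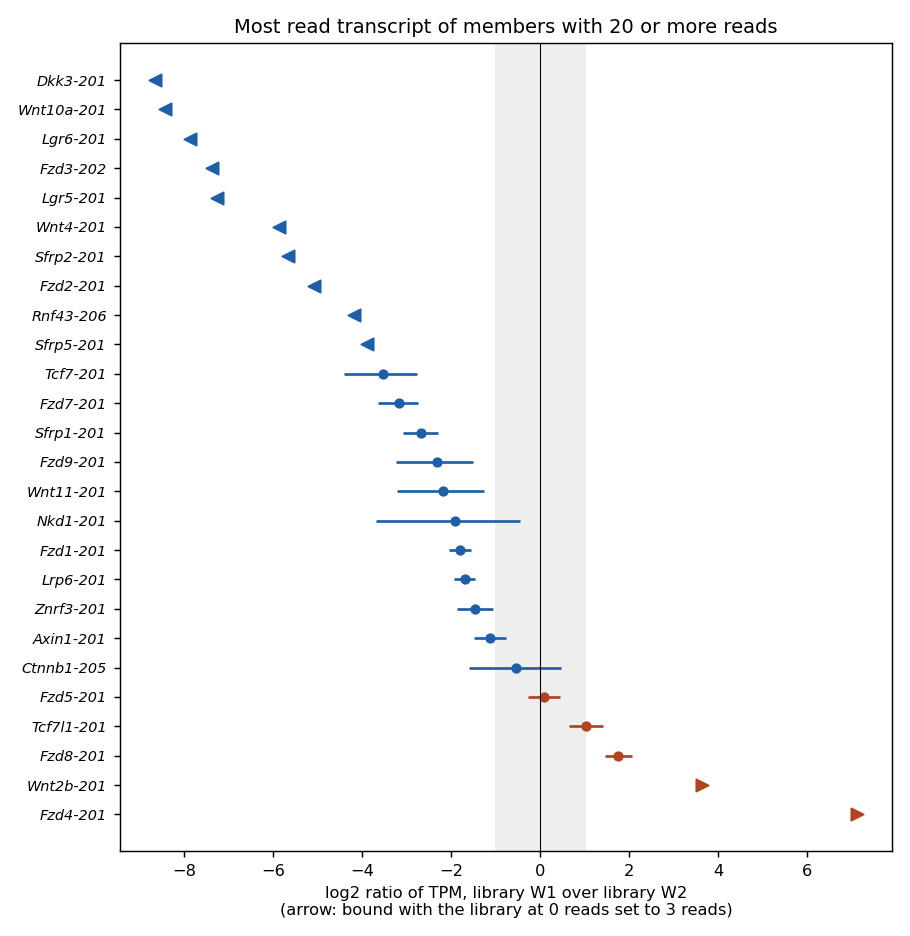
Ratio of TPM in W1 over W2, on a log2 axis, for the most read transcript of each member with 20 or more reads on it. Points carry exact 95% counting intervals, and the grey band marks 2-fold. Arrows are bounds for transcripts with 0 reads in a library, taken from the floor alone, and are not such intervals. Fzd4 and Wnt2b lie farthest toward W1 and Dkk3 and Wnt10a farthest toward W2.

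Genes of the pathway outside the membership rule were taken from 5 lists, and from these Wls, Sostdc1, Trabd2b, Porcn and Gsk3b were named after their values were seen. Of 87 genes 59 were compared, with 25 (42.4%) higher in W2 and 11 (18.6%) higher in W1, against 32.9% and 34.7% of all genes. The median log2 ratio was -0.70, against -0.07 over all genes. The list of secretion and surface genes was the most one-sided by its counts, with 12 of 14 compared genes higher in W2, 0 higher in W1 and a median of -3.02. Wls, the carrier that brings Wnt proteins to the cell surface, stood at 5.10 and 24.1 TPM. Ror1, a receptor kinase for Wnt5a, had 0 and 367 reads (20.9 TPM in W2), at least 122-fold. Sostdc1, a secreted inhibitor of Wnt and BMP signals, had 0 and 272 reads, at least 90.1-fold. Sdc4, a surface proteoglycan, stood at 51.7 and 2502 TPM, and Gpc4, another, at 8.96 and 64.5 TPM. Shisa3, an inhibitor of receptor maturation, stood at 1.60 and 25.1 TPM, and Trabd2b, which cleaves Wnt proteins, had 0 and 274 reads. Porcn, the enzyme that attaches the lipid to Wnt proteins, had 0 reads in both, and has 7 listed transcripts.

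In the cytoplasmic list 5 of 15 compared genes (33.3%) were higher in W2, about the share over all genes, and 3 (20%) were higher in W1 (median -0.72). Apc, a core scaffold of the destruction complex, stood at 17.8 and 4.75 TPM, and Tnks, the enzyme that marks Axin for degradation, at 17.3 and 6.80 TPM. Ctnnbip1, which blocks beta-catenin from binding Tcf factors, stood at 11.7 and 1.72 TPM, 6.83-fold higher in W1 (3.88 to 13.0). Amer1 (0.427 and 9.72 TPM), Dact1 (1.81 and 16.7 TPM), Dact3 (4.09 and 12.8 TPM) and Dact2 (0 and 68 reads), which act at the membrane or on Dishevelled, were higher in W2. Gsk3b, the kinase that marks beta-catenin for destruction, was even at 19.3 and 18.2 TPM, a ratio of 1.06 (0.931 to 1.21). In the nuclear list 2 of 9 compared genes (22.2%) were higher in each library, below both shares over all genes (median -0.22), with Pygo1 (0 and 167 reads) on one side and Tbl1xr1 (65 and 0 reads) on the other.

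Of 11 target genes compared, 4 (36.4%) were higher in W2 and 3 (27.3%) in W1 (median -0.70), shares near those over all genes. Sox9, a transcription factor of epithelial progenitors, stood at 4.95 and 208 TPM, 42.0-fold higher in W2 (32.6 to 54.9). Fosl1, a subunit of AP-1, stood at 41.8 and 1038 TPM. Ccnd1, cyclin D1, stood at 253 and 14.6 TPM, 17.4-fold higher in W1 (14.9 to 20.5), and Prox1, also a lymphatic marker in the lists above, had 1801 and 0 reads. Other pathways act on each of these genes too. In the list of planar polarity and the calcium branch 3 of 10 (30%) were higher in W1 and 2 (20%) in W2 (median 0.26). Both shares lie below those over all genes, 34.7% for W1 and 32.9% for W2. Rac1, a small GTPase of that branch, stood at 26.1 and 2.76 TPM. Daam2 had 0 and 63 reads, and its most read transcript is a retained-intron transcript. Celsr1 stood at 2.12 and 0.301 TPM and its relative Celsr2 at 0.093 and 6.12 TPM. These related cadherins differed in opposite directions.

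Start sites of members were searched for the letters of the Tcf and Lef core, CTTTGAA or CTTTGAT or else CTTTGTA or CTTTGTT, on either strand, spellings that cannot overlap on the same strand but can across strands. Windows of 300 bases (250 before and 50 after the RefSeq start, GRCm38.p6) were at hand for 40 members, 50 windows in all. Of these 8 (16%) held a match, against 16.9% of all 32851 windows, a similar share. Among members higher in W2, 2 of 15 windows held a match, those of Fzd7 and Wnt11, and among members higher in W1 1 of 5 did, at an internal start of Tcf7l2. Of 7 feedback targets with a window, Sp5 and Lef1 held one. The 250 bases before the start are printed for 4 of these, 5′ to 3′ on the gene's strand with matches in capitals, because they are the windows with a match among members that differed, beside Sp5, a direct target that was read in neither library.
Fzd7, chr1:59481897-59482146, plus strand: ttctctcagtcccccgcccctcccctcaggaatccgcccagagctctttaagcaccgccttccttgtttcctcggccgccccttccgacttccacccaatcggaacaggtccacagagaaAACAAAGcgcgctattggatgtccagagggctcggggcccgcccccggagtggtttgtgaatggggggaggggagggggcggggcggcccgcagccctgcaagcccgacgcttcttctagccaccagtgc
Wnt11, chr7:98834862-98835111, plus strand: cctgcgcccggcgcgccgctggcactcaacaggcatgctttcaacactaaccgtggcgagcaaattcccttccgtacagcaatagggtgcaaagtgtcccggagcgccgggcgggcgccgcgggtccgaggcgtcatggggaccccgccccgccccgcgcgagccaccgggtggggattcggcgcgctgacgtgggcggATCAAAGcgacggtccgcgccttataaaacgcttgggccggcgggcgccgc
Tcf7l2, chr19:55895071-55895320, plus strand: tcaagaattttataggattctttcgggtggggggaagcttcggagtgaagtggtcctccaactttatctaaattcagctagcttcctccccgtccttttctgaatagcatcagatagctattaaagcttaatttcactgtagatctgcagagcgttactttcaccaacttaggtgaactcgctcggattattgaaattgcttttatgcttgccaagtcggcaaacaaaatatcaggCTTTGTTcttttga
Sp5, chr2:70474673-70474922, plus strand: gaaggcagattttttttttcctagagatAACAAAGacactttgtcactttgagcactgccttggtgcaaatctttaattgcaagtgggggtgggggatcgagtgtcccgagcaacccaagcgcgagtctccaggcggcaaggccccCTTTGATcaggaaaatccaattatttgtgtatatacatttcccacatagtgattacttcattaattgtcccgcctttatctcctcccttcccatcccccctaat
The match of Fzd7 begins 130 bases before the start and that of Wnt11 51 bases before it, both on the strand opposite to the gene. Sp5 has 1 match in each orientation, 222 and 104 bases before the start. A match is a stretch of letters and not a shown binding site, and no binding was measured here.

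**Figure D5:**
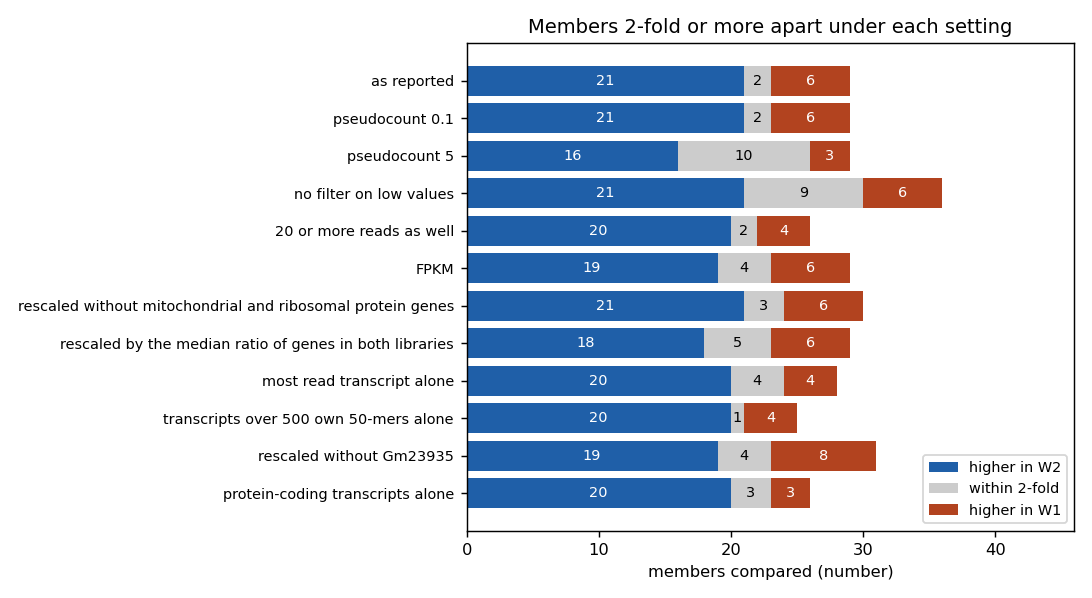
Number of compared members higher in W2 (blue), within 2-fold (grey) and higher in W1 (red) under each way of scaling, filtering and summing. The blue count runs from 16 to 21 and the red count from 3 to 8. Shares over all genes, computed for the pseudocount and scaling settings only, moved as well. Those higher in W2 ran from 19.9% with a pseudocount of 5 to 37.6% without mitochondrial and ribosomal protein genes. Those higher in W1 ran from 16.8% with a pseudocount of 5 to 40.3% without Gm23935.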

How the data were processed

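For 2 mouse libraries, cells went from the sorter into Smart-seq reagent, and a stranded KAPA kit was used on the RNA, per the labels' protocols. The authors deposited TPM and FPKM values per transcript. Bowtie 0.12.2 and the builds mm8 and GRCm38 are named per the submitters' processing notes, and neither these nor the labels name the counting program, annotation or strand setting. Of 137767 listed transcripts, 137654 matched GENCODE M21 (GRCm38) and were summed by gene.

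From the deposited FPKM and transcript lengths, whole reads were recovered. Within 0.1 read, 98.5% of values above 0 were whole in library W1 and 98.0% in library W2. Depth was 3055839 and 3800027 reads. With 1 library of each title and no labelled class, no test was made. A gene entered the comparison, made on log2(TPM + 1), if either library had 1 TPM of it, and ratios of reads carry exact 95% binomial intervals.

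Members and lists were chosen with earlier results of these data known. Named pathway genes have 50 or more reads, at most 4 per list and direction, with exceptions stated. Promoter windows came from RefSeq. A comparison of protein sequences was not run. Alternatives covered pseudocount, filter, scaling and transcript choice. Scripts were tested on simulated data and used pandas 2.3.3, scipy 1.17.1 and numpy 2.4.6 under Python 3.11.15, with figures by matplotlib 3.10.9.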

Additional observations from a re-analysis of the deposited data

How the results depend on the processing

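No member past 2-fold changed sign under the alternatives tried. For the 10 with 0 reads in W1 and the 4 with 0 reads in W2 none of these could change it. Within 2-fold, the log2 ratio of Ctnnb1, -0.12, was 0.15 with FPKM, 0.20 with median ratios and 0.25 without Gm23935, and that of Fzd5, 0.08, was -0.18 without mitochondrial and ribosomal protein genes. The median log2 ratio of compared members, -1.75, was -2.28 with a pseudocount of 0.1, -1.11 with a pseudocount of 5, -1.38 without the filter on low values, -2.18 with 20 or more reads, -2.45 with transcripts of over 500 own 50-mers, and -1.35 when rescaled without Gm23935, an alternative chosen after seeing the data. The count of members higher in library W1, 6, was 3 with a pseudocount of 5 and 3 with protein-coding transcripts alone, the latter also chosen after seeing the data. The share of all genes higher in W1, 34.7%, was 16.8% with a pseudocount of 5, and was not computed for protein-coding transcripts alone. Beyond what these settings do by construction, the cause was not tested. Scaling moved the median of all genes from -0.07 by 0.30 with FPKM, 0.34 with median ratios, -0.24 without mitochondrial and ribosomal protein genes and 0.44 without Gm23935. The member median less the all-gene median was -1.69 as reported and between -1.79 and -1.72 under these. Each of these multiplies a library by a constant, which shifts members and all genes nearly alike. That difference was therefore largely fixed in advance. Members with few reads (Fzd6, Tcf7l2, Wnt6) were not compared with 20 or more reads. No paired analysis was possible because each library stands alone. Depth limits every statement about members at 0.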
